A study of Mus musculus with 8 samples.

Results

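The genes described here carry Ube2 symbols, and most encode ubiquitin-conjugating enzymes, the E2 enzymes. They were taken as the genes of the deposited table whose symbol begins with Ube2 followed by a lower case letter, with symbols marked as pseudogenes by -ps left out. This gave 37 of 24081 genes, and 1 symbol, Ube2d-ps, was left out. The data were RNA-seq libraries of the brainstem (BS) of 4 KI and 4 control mice, all C57BL/6 and untreated, with an age of P19 in the labels (P18 or P19 in the methods). KI mice carried hPDGFRA fl/+ on a background of p53 fl/fl with Nestin Tv-a and Olig2-Tv-a/Cre, and control mice carried all of these but hPDGFRA fl/+. In KI mice human PDGFRA cDNA in the Rosa26 locus, behind a CAG promoter and a floxed stop, is switched on where Cre is made in Olig2-progenitors, and both groups lose p53 in those same cells. The comparison asks how the BS transcriptome differs when hPDGFRA is added to the loss of p53.

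Ubiquitin is passed along a relay of enzymes. An E1 enzyme activates it, an E2 enzyme carries it on a cysteine, and an E3 ligase places it on a protein. The E2 enzyme often decides which lysine of ubiquitin the next one is joined to, so that some E2 enzymes build the Lys48 chains that send proteins to the proteasome and others build Lys63 chains used in signaling and DNA repair. A few E2 enzymes carry relatives of ubiquitin instead, such as NEDD8 and ISG15. In neurons and glia the same relay turns over synaptic proteins, receptors and misfolded proteins.

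Mouse Pdgfra, which can take up reads of the human cDNA, had normalized counts of 11437, 9706, 8939 and 3269 in KI replicates 1 to 4, against 2565 to 3087 in control mice. Gt(ROSA)26Sor, the noncoding gene of the knock-in locus, had 603, 605, 573 and 328 in KI BS and 82.9 to 93.9 in control BS. KI replicate 4 was the lowest KI library for both. It also stood nearer to the controls in summed OPC markers, with 24696 against 7499 to 10190 in the other KI libraries and 32825 to 36391 in control libraries. The KI libraries held 21492789 to 24458589 reads, against 24816146 to 27716846 in the control libraries, so the deepest KI library was still under the shallowest control library. Hindbrain genes were present in all 8 libraries, with summed normalized counts of 6326 to 16671 in KI and 10941 to 16411 in control libraries. The lowest were KI replicate 3 (6326, other KI libraries 14093 to 16671) and control replicate 4 (10941, other control libraries 14200 to 16411). KI replicate 3 and control replicate 4 were low in Ttr, the choroid plexus transthyretin gene, with 237 and 44.9, against 14985 to 97274 in the other 6.

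Of the 37 Ube2 genes, 33 had a mean normalized count of at least 10 and were tested among 15123 genes. At a limma adjusted p under 0.05, 16 were higher in KI BS, 2 were lower, and 15 did not pass. The 16 made up 48.5% of the tested Ube2 genes, where 12.0% of all tested genes were higher. The 2 lower made up 6.06%, where 12.4% of all tested genes were lower. The median log2 fold change of the 33 was 0.21, against -0.0040 for all tested genes, and 23 of the 33 were positive. The 4 KI libraries were all above the 4 control libraries for 15 Ube2 genes (45.5%, against 12.7% of all tested genes) and below them for Ube2o, Ube2r2 and Ube2z (9.09%, against 12.8%). All 18 calls were also made by DESeq2 (14.9% of all genes higher and 14.3% lower) and by edgeR (12.8% and 11.2%). In bulk tissue, fewer cells of a type and less RNA per cell cannot be told apart.

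**Figure D1:**
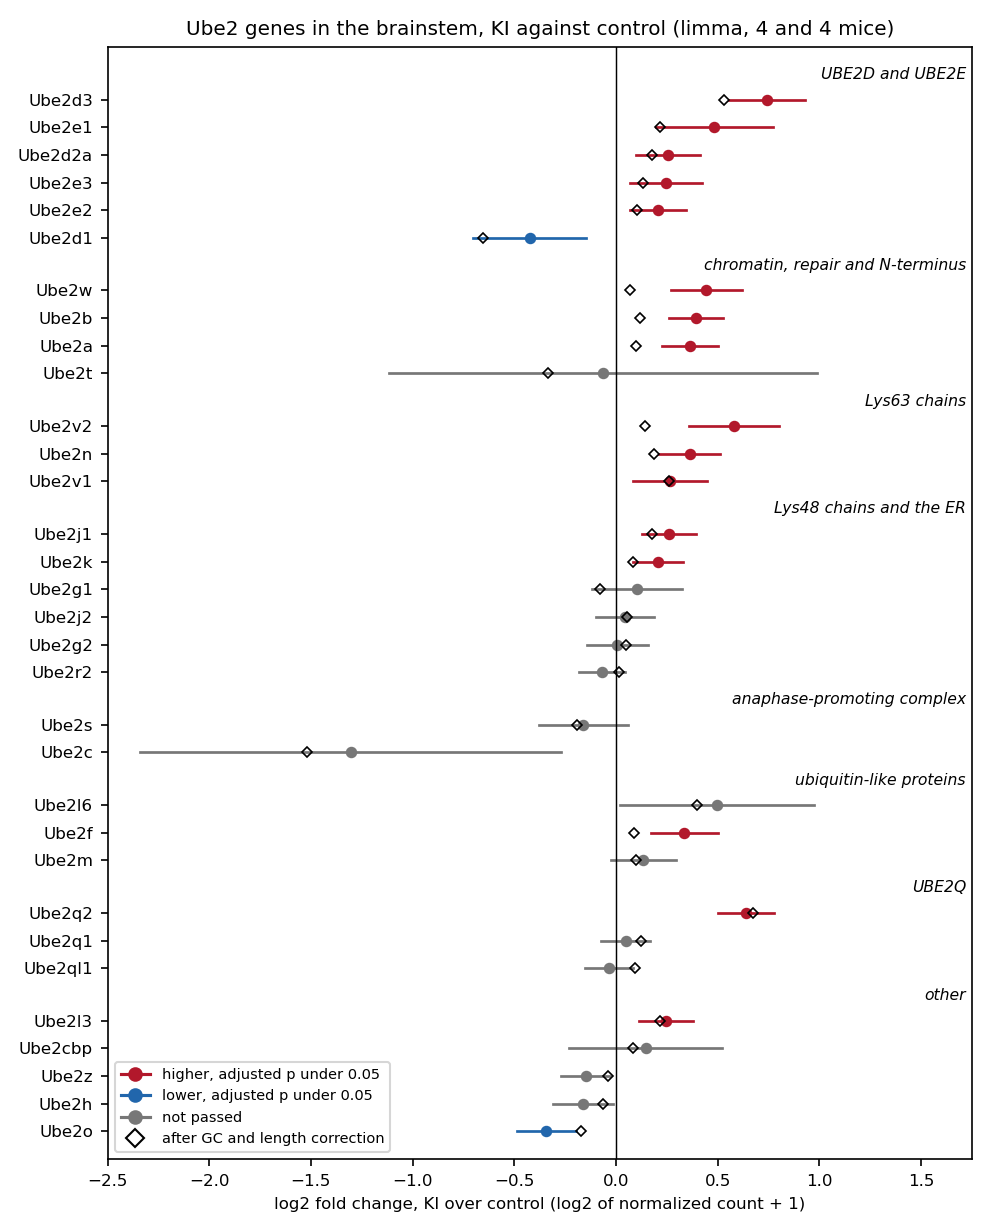
Log2 fold change, KI over control, of 32 of the 33 tested Ube2 genes, ordered by role. Circles and lines are the limma estimates and their 95% intervals, open diamonds the estimates after correction for GC content and transcript length. The 16 genes in red lie between 0.21 and 0.74, and most of their diamonds lie closer to 0.

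The transcripts counted as higher were lower in GC content than the others, and this moved with the result. Their median GC content was 45.2% (36.2% to 55.1%), against 51.9% (40.5% to 60.2%) for the 17 other tested Ube2 genes. Under 50.6%, the median of all tested genes, lay 15 of the 16, against 6 of the 17. In the lowest quartile of GC content 11 of 13 Ube2 genes were higher, where 23.2% of all genes were. In the second quartile 4 of 8 were higher (12.1% of all genes), in the third 1 of 7 (7.97%) and in the highest 0 of 5 (4.55%). Over the 33 genes, GC content and log2 fold change had a Pearson r of -0.49 and a Spearman rho of -0.63, and over all tested genes -0.22 and -0.24. These are correlations across genes measured in the same 8 libraries, and genes are not independent replicates.

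After a loess correction of each library for GC content and transcript length, 4 Ube2 genes were higher (12.1%, against 6.68% of all genes) and 1 was lower (3.03%, against 8.59%). The 4 were Ube2q2, Ube2d3, Ube2l3 and Ube2v1, and the 1 was Ube2d1. The median over the 33 was then 0.09 on the log2 scale, against -0.020 for all genes in that fit, and 24 were positive. With this correction and 1 library left out, Ube2q2 was the only Ube2 gene called in each of the 8 fits, and 6 of the 8 called only 2 to 5 of all genes. Ube2d3 was called in 2 of them, without KI replicate 4 and without control replicate 4.

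**Figure D2:**
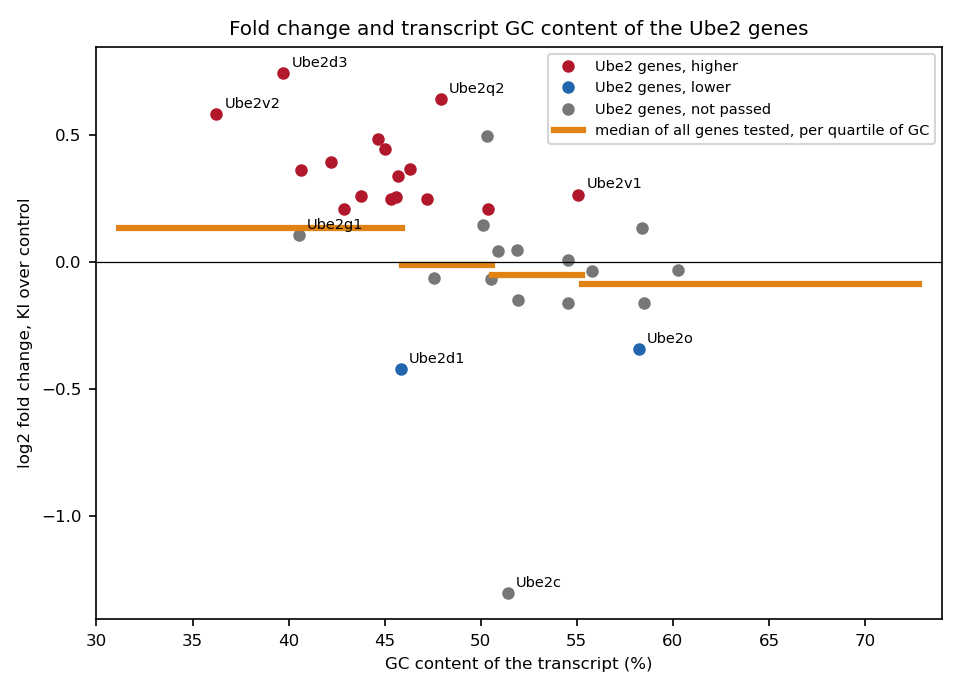
GC content of the transcript (%) and log2 fold change of the 33 tested Ube2 genes, with the median of all tested genes in each quartile of GC content as a bar. Red points, the genes that were higher, lie mostly left of 50.6%, and the bars step down from 0.13 to -0.089.

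The promoters of Ube2d3, Ube2q2 and Ube2d1 are printed here because they belong to the genes with the most lasting calls across fits and to the UBE2D gene that was lower. They are RefSeq windows of GRCm38.p6, from 250 bases before to 50 bases after the annotated start, written 5′ to 3′ on the strand of the gene. Capitals mark matches to GGGCGG (the SP1 box) or CCGGAAG (the ETS core) on either strand.
Ube2d3, chr3:135438230-135438529, plus strand: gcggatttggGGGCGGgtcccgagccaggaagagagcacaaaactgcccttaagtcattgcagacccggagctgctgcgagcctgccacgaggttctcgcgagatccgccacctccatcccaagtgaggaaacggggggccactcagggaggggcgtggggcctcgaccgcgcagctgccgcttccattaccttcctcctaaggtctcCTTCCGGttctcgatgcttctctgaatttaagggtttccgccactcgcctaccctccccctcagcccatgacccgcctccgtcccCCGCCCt
Ube2q2, chr9:55149119-55149418, plus strand: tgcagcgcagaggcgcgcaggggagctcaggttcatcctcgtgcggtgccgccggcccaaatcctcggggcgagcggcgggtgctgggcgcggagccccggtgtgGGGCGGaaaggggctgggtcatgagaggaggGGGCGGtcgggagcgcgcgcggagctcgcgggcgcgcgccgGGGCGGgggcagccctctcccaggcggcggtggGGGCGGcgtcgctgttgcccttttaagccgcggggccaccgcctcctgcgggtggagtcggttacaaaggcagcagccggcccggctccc
Ube2d1, chr10:71285213-71285512, minus strand: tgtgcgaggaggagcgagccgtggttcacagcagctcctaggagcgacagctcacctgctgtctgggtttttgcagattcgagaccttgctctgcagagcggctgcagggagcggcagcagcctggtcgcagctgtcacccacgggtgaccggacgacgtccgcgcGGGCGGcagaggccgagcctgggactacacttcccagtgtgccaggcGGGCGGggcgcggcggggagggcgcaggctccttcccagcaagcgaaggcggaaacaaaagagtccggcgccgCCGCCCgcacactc
All 3 windows held the SP1 box, and that of Ube2d3 also held the ETS core. The start of Ube2d3 in the deposited annotation lies beyond the end of its window.

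Promoter windows were matched for 30 of the 37 genes. The SP1 box GGGCGG was found in 11 of 12 windows of higher Ube2 genes and in 10 of 14 of the other tested Ube2 genes, and in 35.7% of all 32851 windows. The ETS core CCGGAAG was found in 5 of 12 and 2 of 14, and in 8.86% of all windows. CCAAT was found in 3 of 12 and 2 of 14 (37.4% of all), TATAAA in 1 of 12 and 1 of 14 (13.6%) and the NRF1 site in 1 of 12 and 0 of 14 (0.971%). The E-box CACGTG was found in 0 of 12 and 2 of 14 (7.15%), and the CRE TGACGTCA in 0 of 12 and 1 of 14 (1.79%). Both strands were searched, and a match is a run of letters and not a bound site. The 32851 windows were not limited to the 15123 tested genes. Their shares are therefore not those of a matched set.

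The UBE2D and UBE2E enzymes work with a wide range of E3 ligases. Of the 6 tested, 5 were higher and Ube2d1 was lower. After the GC and length correction only Ube2d3 of these 5 was still higher, and Ube2d1 was still lower. Ube2d2a, Ube2e1, Ube2e2 and Ube2e3 then had adjusted p of 0.085, 0.21, 0.22 and 0.22. Ube2d3 (chr3:135438758-135467178, plus strand, mm10), a general partner of RING ligases, had the largest log2 fold change of the tested Ube2 genes. Its normalized counts were 4577, 4685, 4395 and 4824 in KI BS and 2448, 2583, 3117 and 2938 in control BS. Every KI library lay far above every control library, a 1.67-fold difference (log2 fold change 0.74, SE 0.083, adjusted p = 0.0072). After the GC and length correction it was 0.53 on the log2 scale (adjusted p = 0.026).

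Ube2d2a encodes a close relative of Ube2d3. It had 1699, 1615, 1469 and 1657 in KI BS and 1318, 1252, 1437 and 1386 in control BS. The groups did not overlap, though KI replicate 3 lay only just above the highest control library (0.26, SE 0.070, adjusted p = 0.030). Ube2d1 (chr10:71254979-71285262, minus strand), the third gene of the group, had 994, 1002, 911 and 1397 in KI BS and 1404, 1467, 1494 and 1339 in control BS. KI replicates 1 to 3 lay below every control library, while KI replicate 4 lay within the control range. The log2 fold change of Ube2d1 was -0.42 (SE 0.12, adjusted p = 0.035). Its call was kept in only 2 of 8 fits that left out a library, those without KI replicate 4 and without control replicate 4. Ube2d2b, a gene of the same group, had a normalized count of 0.977 in control replicate 4 and 0 in the other 7 libraries.

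**Figure D3:**
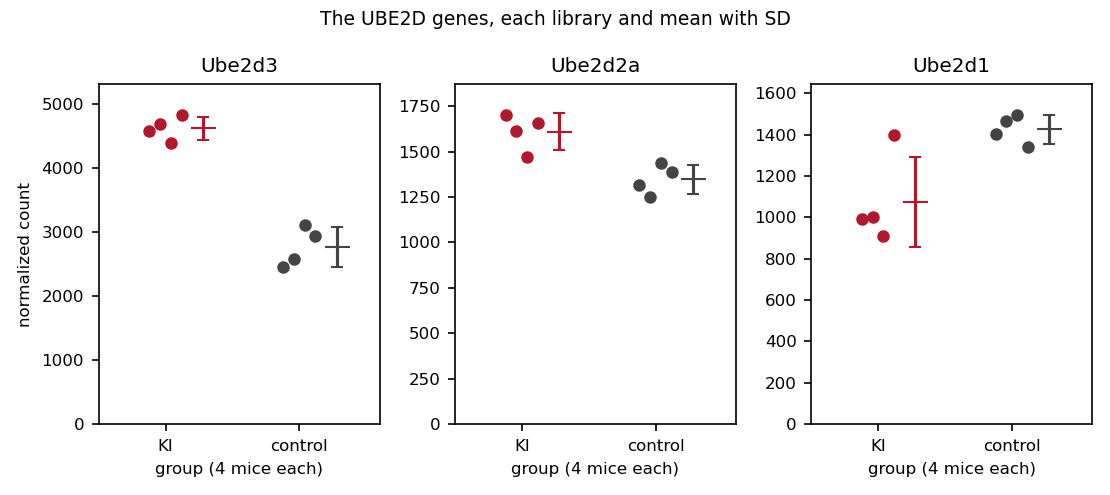
Normalized counts of Ube2d3, Ube2d2a and Ube2d1 in each library, KI on the left and control on the right of each panel, with the mean and SD of 4 mice beside the points. Ube2d3 and Ube2d2a have no KI point under a control point, and Ube2d1 has 1 KI point, at 1397, among the controls.

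Within a library, the log2 ratio of Ube2d3 to Ube2d1 averaged 2.12 ± 0.22 in KI BS and 0.95 ± 0.17 in control BS (SD, n = 4 each). The difference of 1.17 was among 13 ratios of related genes that were compared. Of the 13, 6 did not overlap between the groups, each with p = 0.029 by the two-sided exact permutation test, the smallest that 4 against 4 libraries allow. The adjusted p was 0.062 for each, so none passed. Each of the 6 ratios holds a gene that had passed singly on the same values, so their separation adds no support to those calls. The share of such ratios among other pairs of genes is not given here. Besides Ube2d3 to Ube2d1, the other 5 of these 6 were Ube2d2a to Ube2d1 (0.68), Ube2q2 to Ube2q1 (0.59), Ube2d3 to Ube2d2a (0.49), Ube2j1 to Ube2j2 (0.22) and Ube2f to Ube2m (0.20). After the GC and length correction the difference was 1.18 for Ube2d3 to Ube2d1, 0.83, 0.55, 0.35 and 0.12 for the first 4 of these 5 in the same order, and -0.0085 for Ube2f to Ube2m, so that the last changed sign.

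The UBE2E enzymes carry an extension before the conjugating domain. Ube2e1 had 1088, 1030, 998.6 and 704.7 in KI BS and 643.6, 654.3, 693.1 and 706.0 in control BS. KI replicate 4 lay just under the highest control library and the other 3 KI libraries lay above all controls (0.48, SE 0.13, adjusted p = 0.027). Its exons share 16.1% of their bases with Nkiras1 on the other strand, and reads over both were counted for neither. Ube2e3 had 1764, 1726, 1692 and 1932 in KI BS and 1330, 1464, 1575 and 1638 in control BS, groups that came close without overlapping (0.25, SE 0.079, adjusted p = 0.049). Ube2e2 had 1608, 1670, 1546 and 1486 in KI BS and 1294, 1414, 1383 and 1373 in control BS. Its groups were also apart (0.21, SE 0.061, adjusted p = 0.037).

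All 3 genes of the Lys63 chain group were higher, and after the GC and length correction only Ube2v1 still passed. Ube2n is the E2 enzyme that joins ubiquitin through Lys63, and Ube2v1 and Ube2v2 encode partners that lack the catalytic cysteine. Ube2n had 4404, 4506, 4158 and 4265 in KI BS and 3033, 3366, 3553 and 3564 in control BS. The groups were well apart (0.36, SE 0.068, adjusted p = 0.012). After the GC and length correction Ube2n had 0.19 (adjusted p = 0.064). Ube2v2 (chr16:15550985-15594518, minus strand) had 786.2, 787.6, 828.1 and 827.5 in KI BS and 493.9, 477.6, 551.7 and 648.4 in control BS. All KI libraries lay above control replicate 4, the highest control (0.58, SE 0.098, adjusted p = 0.0094). Ube2v2 had the lowest transcript GC content of the tested Ube2 genes, 36.2%, and its log2 fold change after the GC and length correction was 0.14 (adjusted p = 0.25). Ube2v1 had 624.6, 660.5, 673.0 and 547.4 in KI BS and 528.6, 518.0, 499.7 and 533.2 in control BS, with KI replicate 4 just above the controls (0.26, SE 0.080, adjusted p = 0.042). Ube2v1 is uncertain, since 61.5% of its exon bases lie in the readthrough gene Gm20431 on the same strand.

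In the chromatin, repair and N-terminus group 3 of 4 tested genes were higher. Ube2a and Ube2b are the mammalian counterparts of yeast Rad6, which ubiquitinates histone H2B and, with Rad18, the sliding clamp PCNA. Ube2a had 1122, 1132, 1139 and 1178 in KI BS and 900.3, 820.8, 905.6 and 925.7 in control BS. Its KI libraries were close together and all above the controls (0.36, SE 0.061, adjusted p = 0.0092). Ube2b had 2766, 2980, 3110 and 2797 in KI BS and 2151, 2215, 2208 and 2293 in control BS, again with no overlap (0.39, SE 0.059, adjusted p = 0.0085). Ube2w, which places ubiquitin on the N-terminus of proteins, had 1237, 1435, 1374 and 1304 in KI BS and 881.6, 969.3, 1058 and 1024 in control BS. The KI libraries were all above the controls (0.44, SE 0.078, adjusted p = 0.010). After the GC and length correction the log2 fold changes of Ube2a, Ube2b and Ube2w were 0.096, 0.12 and 0.070, and none passed (adjusted p 0.29, 0.15 and 0.54). Ube2t, the E2 enzyme of the Fanconi anemia pathway, was near the count minimum with 5.6 to 25.2 in KI BS and 10.0 to 27.6 in control BS. Its log2 fold change was -0.066 with a 95% interval of -1.12 to 0.99, so a difference was not detectable at this depth.

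Of the 6 genes for Lys48 chains and the endoplasmic reticulum (ER), 2 were higher. Ube2j1 sits in the ER membrane and serves the disposal of misfolded proteins. It had 4707, 4957, 4384 and 4886 in KI BS and 3859, 3865, 4107 and 3968 in control BS, without overlap (0.26, SE 0.060, adjusted p = 0.018). Ube2k, which builds Lys48 chains, had 2930, 2974, 3054 and 3137 in KI BS and 2504, 2573, 2697 and 2718 in control BS. These groups were also apart (0.21, SE 0.055, adjusted p = 0.027). The other 4 did not pass. Ube2j2, the second membrane enzyme, had a log2 fold change of 0.043 (95% interval -0.10 to 0.19), Ube2g2 0.0066 (-0.14 to 0.16), Ube2g1 0.10 (-0.12 to 0.32) and Ube2r2, a partner of cullin-RING ligases, -0.068 (-0.18 to 0.044). Ube2r2 had 1986, 1980, 1933 and 2028 in KI BS and 2056, 2033, 2103 and 2121 in control BS, so its groups were apart by a small margin.

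Neither E2 enzyme of the anaphase-promoting complex passed. Ube2c starts ubiquitin chains on mitotic proteins and Ube2s extends them. Ube2c had 3.0, 7.8, 4.1 and 17.2 in KI BS and 21.4, 15.0, 18.2 and 16.6 in control BS. KI replicates 1 to 3 lay below the controls and KI replicate 4 within them (-1.31, 95% interval -2.34 to -0.27, adjusted p = 0.067). Of the fits that left out a library, it passed in 1, that without KI replicate 4. Of 16 tested proliferation markers, none was higher and 3 were lower, where 12.4% of all tested genes were lower, and the median was -0.59. After the GC and length correction 2 were lower (8.59% of all genes). Top2a, topoisomerase II of dividing cells, had 9.9, 11.2, 6.2 and 102.1 in KI BS and 119.5, 79.0, 111.3 and 71.3 in control BS, so KI replicate 4 was again within the controls (-2.41, adjusted p = 0.039). Ube2s had 272.2 to 315.3 in KI BS and 283.0 to 353.5 in control BS (-0.16, 95% interval -0.38 to 0.056).

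Among the 4 E2 enzymes of ubiquitin-like proteins, Ube2f alone passed. Ube2f passes NEDD8 to Cul5 and had 1877, 2014, 1862 and 1612 in KI BS and 1401, 1454, 1494 and 1469 in control BS. KI replicate 4 was the nearest to the controls and still above them (0.34, SE 0.074, adjusted p = 0.016). Ube2m, which passes NEDD8 to the other cullins, had 4008, 3906, 3630 and 3315 in KI BS and 3546, 3339, 3271 and 3360 in control BS. These groups overlapped through KI replicate 4 (0.13, 95% interval -0.027 to 0.29). Of the 8 fits that left out a library, Ube2m passed in 1, that without KI replicate 4. Ube2l6, the ISG15 enzyme, had 129.1, 129.4, 112.7 and 132.0 in KI BS and 142.6, 71.5, 82.1 and 74.2 in control BS. Control replicate 1 was the highest of all 8 libraries, and the other 3 controls lay below every KI library (0.49, 95% interval 0.017 to 0.97, adjusted p = 0.12). Of the same 8 fits, Ube2l6 passed in 1, that without control replicate 1. None of the 10 interferon-induced genes passed in either direction.

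In the UBE2Q group only Ube2q2 (chr9:55149368-55207529, plus strand) passed. Ube2q2 had 1855, 2036, 2099 and 1964 in KI BS and 1240, 1226, 1337 and 1302 in control BS. The KI libraries were far above the controls, a 1.56-fold difference (0.64, SE 0.062, adjusted p = 0.0072). With a GC content of 47.9%, its log2 fold change after the GC and length correction was 0.67 (adjusted p = 0.0044). Its relatives Ube2q1 (0.047, 95% interval -0.072 to 0.17) and Ube2ql1 (-0.034, -0.15 to 0.085) did not pass.

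Among the remaining genes, Ube2l3 was higher and Ube2o was lower. Ube2l3, an E2 enzyme of RBR ligases, had 4009, 4143, 4327 and 3859 in KI BS and 3395, 3319, 3638 and 3427 in control BS, without overlap (0.25, SE 0.060, adjusted p = 0.020). Its exons share 28.6% of their bases with Ydjc on the other strand. Ube2o (chr11:116537752-116581447, minus strand) is a large enzyme that acts as both E2 and E3. It had 3577, 3725, 3377 and 3948 in KI BS and 4527, 4865, 4480 and 4675 in control BS. Every KI library lay below every control library (-0.34, SE 0.065, adjusted p = 0.012). After the GC and length correction, Ube2o had -0.17 (adjusted p = 0.10). Ube2z, which takes ubiquitin from the E1 enzyme Uba6, had 2562, 2622, 2388 and 2583 in KI BS and 2786, 2833, 2866 and 2777 in control BS. The groups did not overlap, but limma did not call it (-0.15, adjusted p = 0.069), while DESeq2 did (adjusted p = 0.040). Ube2h (-0.16, 95% interval -0.31 to -0.013) and Ube2cbp (0.14, -0.23 to 0.52) did not pass. Ube2cbp is named as a binding protein of UBE2C and was taken in by its symbol. Ube2u had at most 1.8 normalized counts in any library, and Ube2dnl1 and Ube2dnl2 had no read in any.

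**Figure D4:**
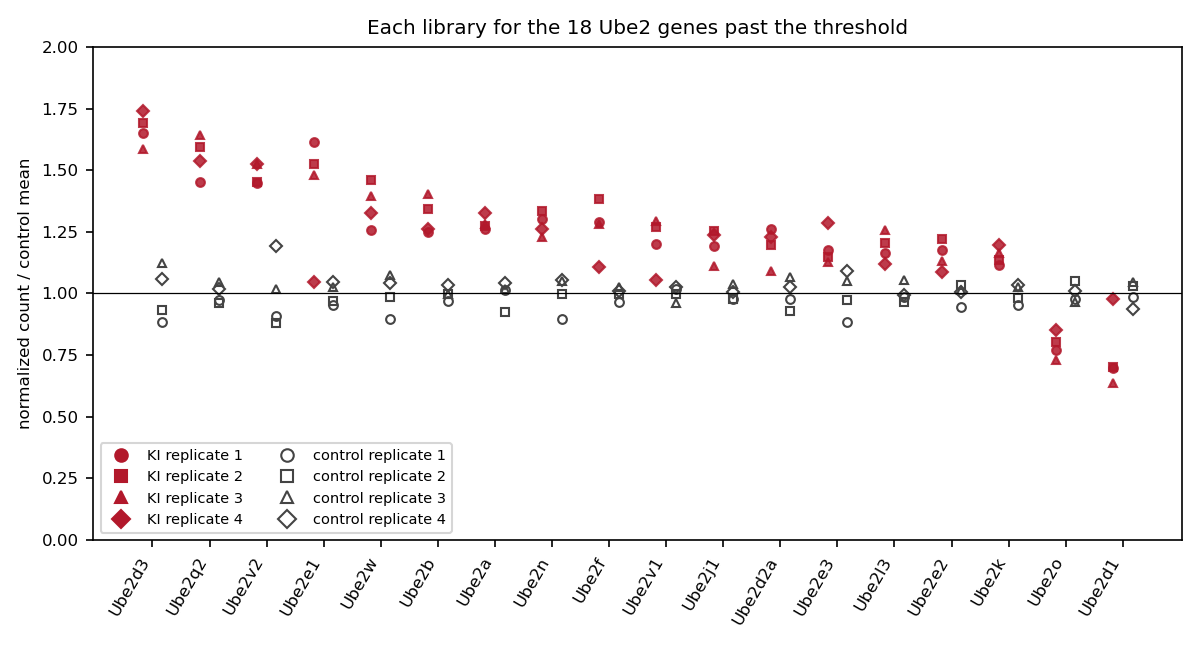
Normalized count of each library divided by the control mean, for the 18 Ube2 genes past the threshold, with filled symbols for KI on the left and open symbols for control on the right of each gene. KI replicate 4 (filled diamond) falls within or next to the controls for Ube2e1, Ube2v1 and Ube2d1 but not for Ube2d3, Ube2q2 or Ube2v2.

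Among the 16 higher genes the lowest KI library was replicate 1 in 6, replicate 3 in 5, replicate 4 in 5 and replicate 2 in none. These 16 had passed on the same values, and a KI library among the controls makes a call less likely. Ube2c and Ube2m, outside this count, passed when KI replicate 4 was left out. The count therefore does not describe KI replicate 4 over other genes, and no share over all tested genes is given here. Ube2a, Ube2b, Ube2d3, Ube2n, Ube2q2, Ube2v2 and Ube2w, 7 of the 16, were called in each of the 8 fits that left out 1 library, as was Ube2o. Ube2f, Ube2j1 and Ube2l3 were called in 6 of the 8, Ube2d2a in 4, Ube2k in 3, Ube2e1 in 2, and Ube2e2, Ube2e3 and Ube2v1 in 1. The share of all tested genes called in as many of these fits is not given here. These counts therefore describe single genes only. Without KI replicate 2, 7 Ube2 genes were higher and 1 was lower (3.89% and 2.72% of all genes), and without control replicate 2 the counts were again 7 and 1 (3.6% and 2.27% of all genes). Without the 2 libraries low in Ttr, 9 Ube2 genes were higher and 1 was lower (6.03% and 6.11% of all genes). With log2 Xist as a covariate, 13 were higher and 1 was lower (7.97% and 6.64% of all genes). Xist was high in KI replicate 4 (8943) and in control replicates 2 and 3 (4155 and 7792) and at most 43.9 in the other 5 libraries. Within the KI group the covariate therefore cannot be told apart from KI replicate 4 itself.

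**Figure D5:**
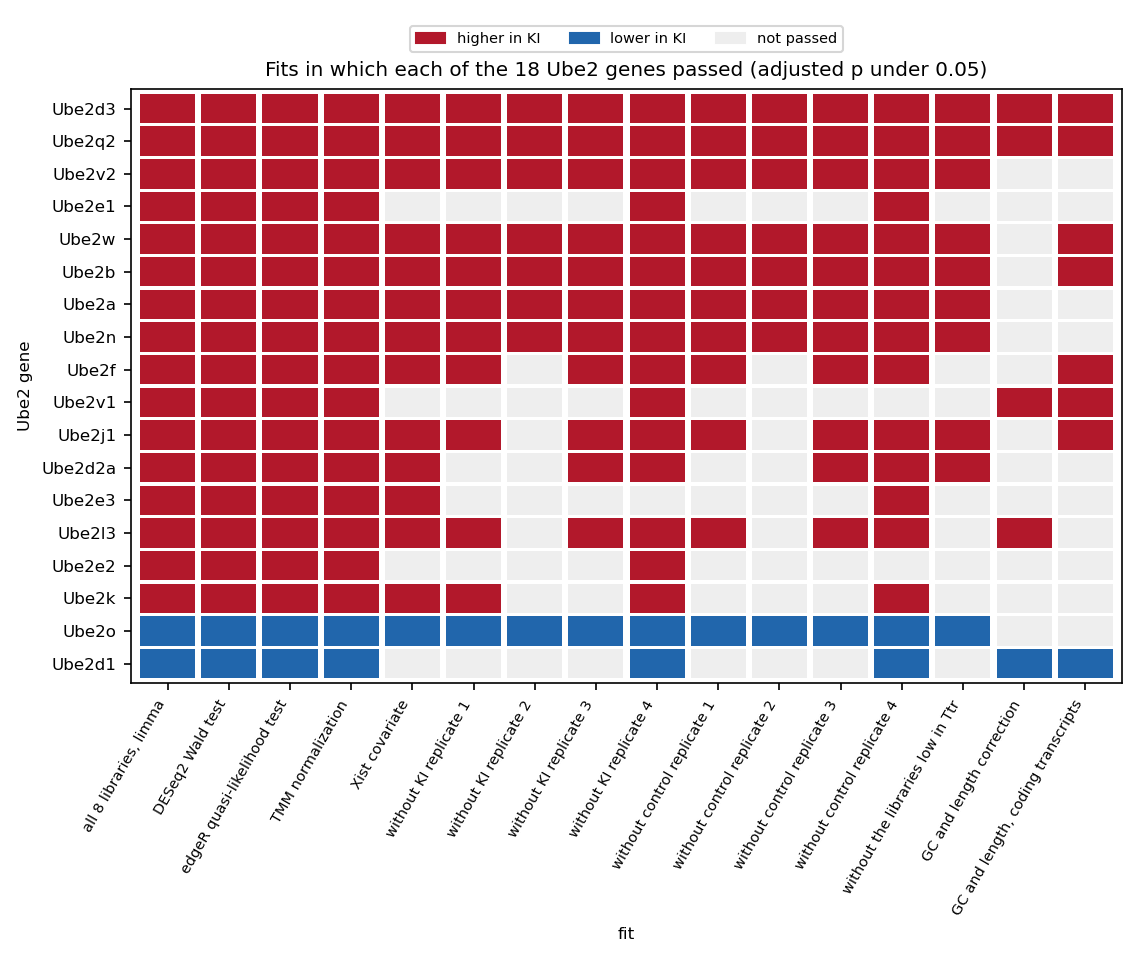
The 18 Ube2 genes past the threshold (rows) and 16 fits (columns), with a red cell where the gene was higher at an adjusted p under 0.05, a blue cell where it was lower and a grey cell where it did not pass. Ube2d3 and Ube2q2 are red in all 16 columns, and most other rows turn grey in the columns corrected for GC content and length.

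The summed normalized count of the Ube2 genes was 63766 ± 1096 in KI BS and 56895 ± 1535 in control BS (SD, n = 4 each). By library it was 63294, 65042, 62518 and 64209 in KI BS and 55140, 56096, 58376 and 57969 in control BS, without overlap. Ube2d3 and Ube2q2 made up 37.3% of the difference. Levels compared between genes are given per kilobase of transcript. Ube2m had the highest, at 3025 normalized counts per kilobase in KI BS and 2752 in control BS. Ube2t had the lowest of the tested genes, at 15.5 in KI BS and 15.3 in control BS, and the median control level was 704. Of the 33, 26 had over 500 normalized counts in every library.

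The counts of the pathway lists stand beside 12.0% of all tested genes higher and 12.4% lower, or 6.68% and 8.59% after the GC and length correction, and a median of -0.0040. Of 10 E1 genes, 2 were higher and 1 was lower (median -0.049), and after the correction 0 and 1. Nae1 (0.45, adjusted p = 0.014) and Uba3 (0.25, adjusted p = 0.014), the subunits of the enzyme that activates NEDD8, were higher, and Uba1, the main ubiquitin E1, was lower (-0.31, adjusted p = 0.012). Uba1 had 7064, 7335, 7050 and 7741 in KI BS and 8790, 9321, 9039 and 8901 in control BS, with no overlap. Of 8 E2 genes that carry other names, 4 were higher and none was lower (median 0.19), with Tsg101 (0.37), Ufc1 (0.45) and Atg10 (0.46) having the smallest p. After the correction 1 was higher and 1 was lower.

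Of 12 tested genes for ubiquitin and its relatives, 5 were higher and 1 was lower. Rps27a, which encodes ubiquitin fused to a ribosomal protein, had 4972, 5679, 4860 and 4093 in KI BS and 3487, 3056, 3236 and 3477 in control BS, without overlap (0.56, adjusted p = 0.010). Ufm1, a ubiquitin-like protein, was also higher (0.26, adjusted p = 0.018). The median of this list was 0.24, and after the correction 1 gene was higher and 2 were lower.

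Of 17 cullin-RING core genes, 6 were higher, with Skp1a (0.59), Rbx1 (0.37) and Dcun1d1 (0.46) first by p, and Ddb1 was lower (-0.35). The list had a median of 0.089, and after the correction 1 was higher and 1 was lower. Of 26 HECT ligases, Ube3a, the Angelman syndrome ligase, was higher (0.26) and 6 were lower, with Smurf1 (-0.69), Hectd3 (-0.25) and Trip12 (-0.27) first by p. The median was -0.15, and after the correction 0 were higher and 6 lower. Of 14 ER-associated degradation genes, none was higher and 5 were lower, among them Syvn1 (-0.53), Vcp (-0.50) and Os9 (-0.38). Syvn1, the ER ligase, had 846.3, 798.8, 705.0 and 882.6 in KI BS and 1235, 1200, 1085 and 1145 in control BS, with no overlap (adjusted p = 0.0089). The list had a median of -0.15, and 1 gene was higher and 5 were lower after the correction.

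Of 16 genes of the anaphase-promoting complex, 2 were higher and 4 were lower, with Anapc10 (0.47) and Fzr1 (-0.30) first in each direction (median 0.071), and after the correction 0 and 1. Of 16 chromatin and DNA damage ligases, Rad18, the partner of Ube2a and Ube2b, was higher (0.46) and 3 were lower. Those were Rnf40 (-0.31) and Rnf20 (-0.33), which together form the H2B ligase, and Brca1 (-1.04). The median was -0.060, and the corrected counts were 0 higher and 2 lower. Of 14 SUMO ligases and proteases, Pias2 and Senp2 were higher (0.26 each) and Pias4 was lower (-0.42), with a median of 0.017 and corrected counts of 1 and 0. Of 13 RBR ligases, Arih2 alone was higher (0.28), also after the correction (median 0.037), and neither of the deubiquitinases that bind E2 enzymes, Otub1 and Otub2, passed. After the GC and length correction Nae1, Uba3 and Skp1a no longer passed, while Ufc1, Rps27a and Rbx1 were still higher and Uba1, Ddb1, Smurf1, Syvn1 and Vcp still lower.

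Markers of cell types moved with the groups as well. Among all tested genes 12.0% were higher and 12.4% were lower. Of 11 OPC markers 9 were lower (median -2.12), and of 12 markers of myelinating oligodendrocytes (OLs) 7 were lower (median -1.36). Of 12 astrocyte markers 7 were higher (median 0.64), and their summed normalized count was 279060 to 437021 in KI and 200867 to 248308 in control libraries. Summed OL markers were 470890 to 1424219 in KI and 1141622 to 1738913 in control libraries. Of 12 pan-neuronal markers 2 were higher and 1 was lower (median 0.036), and none of 9 microglial markers passed. Of 7 endothelial markers 2 were lower (median -0.23), and of 5 erythrocyte markers 1 was higher (median 0.78). No marker passed in the remaining lists. After the GC and length correction 10 OPC and 8 OL markers were lower and 6 astrocyte markers higher. Of pan-neuronal markers 1 was then higher, and no microglial, endothelial or erythrocyte marker passed. Of all genes 6.68% were then higher and 8.59% lower. The part of these cell types in the Ube2 differences was not tested.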

How the data were processed

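BS libraries of 4 KI and 4 control mice were analyzed. Per the labels and the methods, the authors prepared TruSeq mRNA libraries, used STAR 2.7 for alignment to mm10, obtained gene counts from HTSeq without strand and divided counts by DESeq2 size factors. The deposited signal is this normalized count, and 100% of values came out as whole reads (tolerance 0.01 reads) when the division was undone. The authors' fold changes, Wald statistics, p-values and group means were not used. Of 24709 table lines, 628 repeated a gene and were dropped.

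Groups came from the labels. The methods state that littermate controls were used, without tying litters to replicate numbers, so the numbers mark no stated pairs. The test was limma 3.58.1 (R 4.3.3) with a variance trend, on log2 of the normalized count with a pseudocount of 1, for genes whose mean reached 10. Adjustment was by Benjamini-Hochberg at 0.05. Fold changes on this scale understate low genes. The steps were tested on simulated data. DESeq2 1.42.0 and edgeR 4.0.16 on the recovered reads were alternatives, as were TMM, other filters and pseudocounts, the replicate block, log2 Xist as covariate, each library left out, the libraries low in Ttr left out, and a loess correction (span 0.3) for GC content and transcript length. Transcripts matched to curated RefSeq entries served for 99.3% of tested genes, and coordinates are GRCm38 (mm10). Chosen after seeing the data were the correction with protein-coding transcripts and the correction with each library left out. The Ube2 genes, the 13 pathway lists and the 11 marker lists were chosen with earlier results of these data known. Every Ube2 gene is counted, and of each pathway list at most the 3 genes with the smallest p past the threshold in each direction are named. A few genes are counted but not reported here by name or value. Entries with no match under the symbol used include Elob, Eloc, Hectd4, Marchf6 and Ufd1.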

Additional observations from a re-analysis of the deposited data

Results flagged for a closer look

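In each group of 4 libraries, the gap between the highest or lowest library and its nearest neighbor was set against the range of the group, for 70 groups of values. Chance marks about 1 in 20 such groups, and 5 of the 70 were marked. Ube2g1 had 2028 in KI replicate 4, against 1522 to 1601 in the other KI libraries. Ube2g2 had 899 in KI replicate 1, against 866 to 869 in the others. Ube2l6 had 113 in KI replicate 3, against 129 to 132 in the other KI libraries, and 143 in control replicate 1, against 71.5 to 82.1 in the other controls. Gt(ROSA)26Sor had 328 in KI replicate 4, against 573 to 605 in the other KI libraries.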

How the results depend on the processing

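Over 29 alternatives, 705 of 957 values of single Ube2 genes kept their side of the threshold, 45 of them with a change of sign in 7 genes that did not pass. Another 245 lost the call, 5 gained it and 2 lost it with a change of sign. Those 2 were Ube2k (-0.034) and Ube2d2a (-0.062), corrected for GC content and length with protein-coding transcripts. Against 16 Ube2 genes higher, 2 lower and 3685 of all genes past the threshold, the counts were within 1.5 times under DESeq2, edgeR, TMM, both pseudocounts and both filters. They were 13, 1 and 2210 with the Xist covariate, 9, 1 and 1836 without the libraries low in Ttr, 4, 1 and 2307 after the GC and length correction, and 7, 1 and 2772 with protein-coding transcripts. With 1 library left out they ranged over 7 to 16, 1 to 3 and 888 to 5296, lowest without control replicate 2 (7, 1 and 888) and KI replicate 2 (7, 1 and 1001). With the GC and length correction and 1 library left out they ranged over 1 to 7, 0 to 3 and 2 to 4652 (2140 of all genes without control replicate 4, and 5 without control replicate 1). The cause of these changes was not tested. Same-numbered libraries had correlations of 0.26, -0.12, -0.46 and -0.36, on values centered within each group. The best match of KI replicate 1 was control replicate 1, and the other KI libraries were best matched by another number. These correlations cannot exclude shared litters. With the replicate block no gene passed in limma, with counts of 0, 0 and 0 (17, 4 and 5087 at an unadjusted p under 0.05), and with the block and the GC and length correction 0, 0 and 0 (6, 2 and 4234). Ube2c, Ube2t and the 4 genes under the count minimum had too few reads for a small difference to be detected.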
